A study of Mus musculus with 12 samples.

Results

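The genes described here are the Wnt ligands, the Frizzled (Fzd) receptors and 2 families of secreted antagonists, the secreted Frizzled-related proteins (Sfrp) and the Dickkopf proteins (Dkk), in mouse muscle stem cells (MuSCs). They were taken by name: every gene called Wnt, Fzd, Sfrp or Dkk with a number. This gave 37 genes of 55335 in the count files, made up of 19 Wnt, 10 Fzd, 4 Sfrp and 4 Dkk genes, and 31 of them held enough reads to be tested. RNA was sequenced from 4 groups of 3 libraries, all from hindlimb MuSCs of Pax7-ZsGreen mice, in which a green reporter marks cells that express Pax7 and was used to sort them. F cells went from the sorter into lysis reagent. 2d-U cells were cultured for 2 days on coated plastic in serum and FGF, and 5d-U cells for 5 days, both uncompressed. 2+3d-C cells were cultured uncompressed for 2 days and then for 3 days under a silicone device whose pillars limit the cell height. The other groups were left untreated, with no device, so contact with the device and compression cannot be told apart, and the sort marks Pax7 reporter activity, not each cell's purity. The labels do not say which libraries share an animal or a sort, so p-values measure the spread between these libraries.

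Wnt proteins are secreted, lipid-carrying ligands that bind Frizzled receptors at the cell surface. With Lrp5 or Lrp6 as co-receptor the signal stabilises beta-catenin, which works with TCF/LEF factors on target genes, while other Wnt and Frizzled pairs act through planar polarity proteins or calcium. Sfrp proteins resemble the ligand-binding part of a Frizzled receptor and hold Wnts in the extracellular space, and most Dkk proteins block the Lrp co-receptors. In muscle, Wnt signals are known both for keeping stem cells at rest and for moving their progeny toward differentiation.

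The 12 libraries held 12540745 to 62424851 reads on genes. Levels are given as RPKM, read counts divided by exon length and by library size, with library sizes scaled by the TMM method. A gene was called changed at an adjusted p under 0.05 in edgeR's quasi-likelihood test over 22635 genes. Where every library of a group held at most 3 reads, the difference is given as a lower bound computed from 3 reads per library, since a fitted fold change has no fixed size there. In 4 libraries, F replicates 4 and 5 and 5d-U replicates 1 and 6, reads also fell on gene families not transcribed in muscle or most other tissues (olfactory receptors among them). Their density there was 5.03, 7.13, 3.81 and 0.634 reads per kb of exon, against 0.00936 to 0.220 in the other 8 libraries. Reads on the members in these 4 libraries are therefore set beside the number that this density gives for a gene of the same length.

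Markers of other cell types moved with the groups, and their part in the results that follow was not tested. The summed RPKM of 8 endothelial markers was 252 to 399 in F, 2.83 to 3.60 in 2d-U libraries, 1.97 to 8.48 in 5d-U libraries and 56.9 to 128 in 2+3d-C. For 9 fibroadipogenic markers the ranges were 617 to 1901, 0.904 to 2.47, 7.49 to 36.8 and 198 to 393, and for 6 glial markers 93.0 to 151, 0.310 to 0.567, 0.787 to 2.54 and 40.7 to 97.0. The sums of all 3 lists were thus far higher in F and 2+3d-C than in either uncompressed culture, but single genes differed. In 2+3d-C, Dpt alone gave 144, 218 and 120 RPKM of the fibroadipogenic sums of 220, 393 and 198. Pdgfra had 0.849, 0.0241 and 0.00912 RPKM there, and Sox10 of the glial list held 1057, 9 and 3 reads. Against 5d-U, 4 of 9 fibroadipogenic genes were called higher and 1 lower, and 3 of 6 glial genes higher and 0 lower. Of the 8 endothelial genes, 6 were called higher and 0 lower. Among all genes tested, 9.14% were called higher and 13.4% lower against 5d-U, and 16% and 8.63% against 2d-U. Within these lists, Dpp4 of the fibroadipogenic list and Gfra3 of the glial list were at 0 reads in all 3 2+3d-C libraries, while all 8 endothelial markers were above 3 reads there. The 8 immune markers summed to 273 to 741 in F, 0.529 to 1.05 in 2d-U libraries, 1.19 to 84.0 in 5d-U libraries and 5.96 to 67.9 in 2+3d-C, with Ptprc and Cd3e at 0 in all 3 2+3d-C libraries. Smooth muscle and pericyte markers (7 genes) reached 247 to 280, 28.5 to 38.9, 23.0 to 328 and 84.0 to 152. Acta2 made up most of this sum in every uncompressed culture, with 20.6, 289 and 326 RPKM in 5d-U libraries. Rgs5, Myh11, Pdgfrb, Kcnj8 and Abcc9 were called up under compression against both uncompressed cultures, and 0 of the 7 down. The 4 tendon markers gave 151 to 1486, 81.5 to 150, 84.1 to 496 and 28.9 to 53.8. Scx made up nearly all of the uncompressed tendon sums, with 82.3, 124 and 493 RPKM in 5d-U libraries. Under compression Scx was called down against both uncompressed cultures, while Tnmd and Fmod were called up. The 7 markers of mature myofibers gave 19.5 to 1569, 32.4 to 56.6, 103 to 1573 and 37.6 to 111. The list for MuSCs themselves (10 genes, among them Pax7, Myod1, Sdc4 and Chodl) summed to 1006 to 2457 in F, 994 to 1185 in 2d-U libraries, 1007 to 1613 in 5d-U libraries and 5886 to 7007 in 2+3d-C. Most of the 2+3d-C sums came from Myod1 (2774, 4548 and 2235 RPKM) and Sdc4 (1984, 1247 and 2477 RPKM). Pax7 had 14.4, 15.1 and 10.3 RPKM there. In the study, MyoD protein marked progenitors and committed cells, whose fractions were smaller under compression than in 2d-U and 5d-U. The sum of this list is therefore not a measure of the stem cell state. All 10 genes of the list had more than 3 reads in every library but 5d-U replicate 2, where 9 had. One of them, Chodl, was near 0 in both uncompressed cultures, at 0.747, 0.556 and 0.682 RPKM in 2d-U libraries and 0.396, 0.00635 and 0.0534 in 5d-U libraries beside 34.5 to 211 in F and 148 to 172 in 2+3d-C. In bulk RNA, fewer cells of a type and less RNA per cell cannot be told apart.

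**Figure D1:**
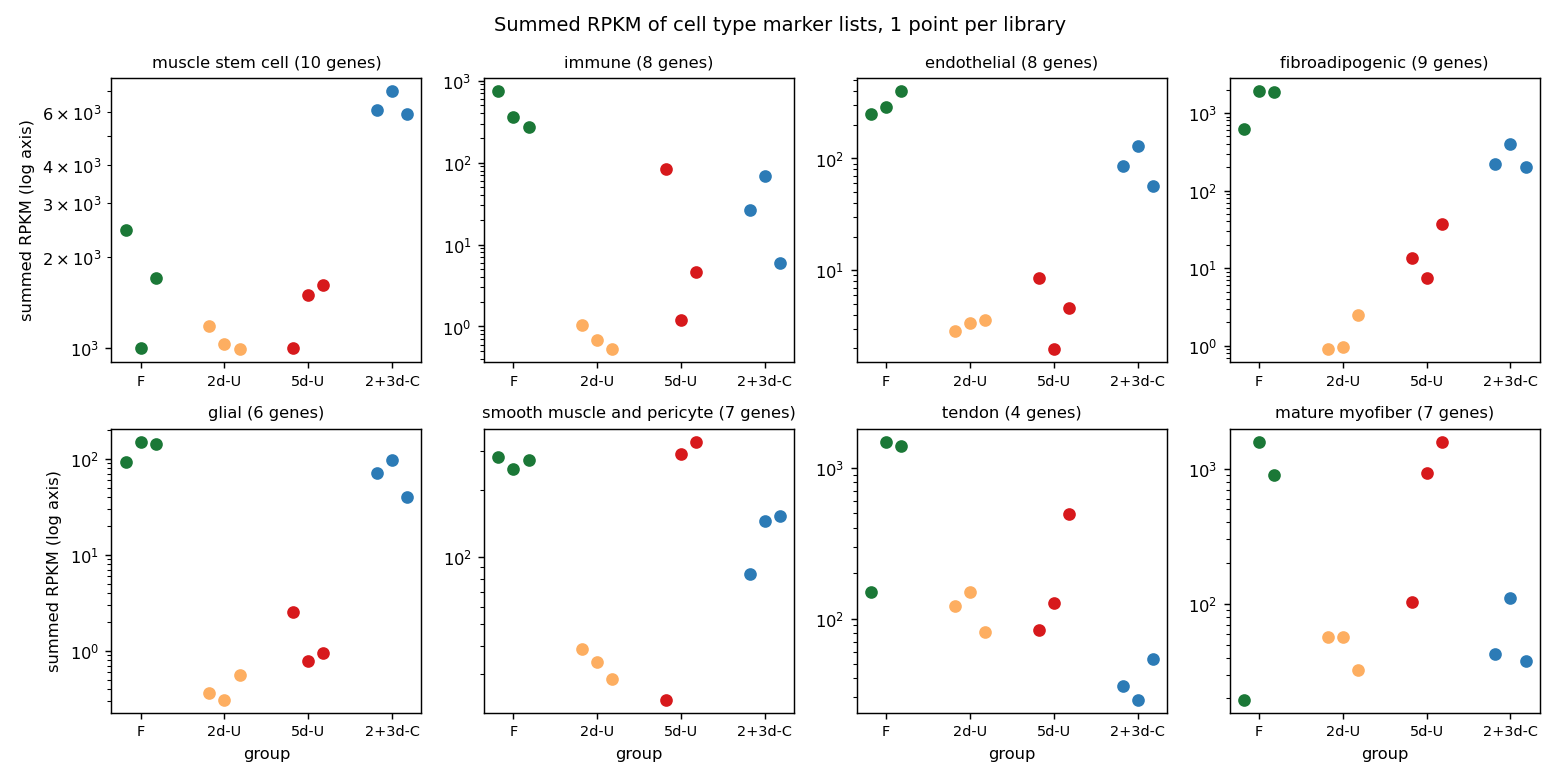
Summed RPKM (log axis) of 8 marker lists in each library, 1 point per library, by group. Endothelial, fibroadipogenic and glial sums lay below 40 in all 2d-U and 5d-U libraries and above it in all F and 2+3d-C libraries.

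Compression was compared first with uncompressed culture of the same length. Of the 31 members tested, 7 differed between 2+3d-C and 5d-U cells. Wnt4, Fzd4, Fzd9, Sfrp4 and Sfrp5 were higher under compression, and Wnt7b and Wnt10b were lower. Among all genes tested 22.6% were called in this comparison, 9.14% higher and 13.4% lower, so the share of members called was that of genes in general. When only the 8 libraries with few reads on silent families were fitted, 2 members were called, Sfrp5 higher and Wnt7b lower. The median member changed by 0.06 on the log2 scale, also with 9 members set to their bounds, and the median gene fell by 1.05. Against 2d-U cells, from which the compressed culture started, 11 members differed. Wnt2b, Wnt4, Wnt5a, Wnt6, Fzd4, Fzd5, Sfrp4, Sfrp5, Dkk2 and Dkk3 were higher and Wnt7b was lower, where 24.6% of all genes were called, 16% higher and 8.63% lower. The median member was 1.76 higher (1.84 with bounds, 6 members at or under 3 reads in both groups left out), and the median gene 0. Against F cells, only Wnt7b and Wnt10b among the 31 members differed, both lower, with 6.4% of all genes called, 1.94% higher and 4.47% lower. The member median was -2.77 (-1.98 with bounds) beside -0.76 for all genes.

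The 3 uncompressed groups were compared in the same way. From F to 2d-U, 19 of the 31 members were called, where 43.8% of all genes were, 10.6% higher and 33.3% lower. One of the 19, Wnt7b, was higher after 2 days of culture. The other 18 were lower, namely Wnt1, Wnt2, Wnt2b, Wnt4, Wnt5a, Wnt6, Wnt9b, Wnt10b, Wnt11, Fzd4, Fzd5, Fzd10, all 4 Sfrp genes, Dkk2 and Dkk3. The member median was -4.64 (-3.19 with 13 members at their bounds) beside -1.63 for all genes. In 5d-U cells 7 members were lower than in F cells (Wnt4, Wnt11, Fzd4, Fzd8, Sfrp4, Sfrp5 and Dkk3) and none was higher, with 20.5% of all genes called, 11.6% higher and 8.9% lower. The member median was -1.88 and that of all genes -0.41. Between 5d-U and 2d-U no member was called by edgeR, where 2.12% of all genes were, 1.87% higher and 0.243% lower. An unadjusted p under 0.05 was reached by 12 of the 31 members and by 35.1% of all genes. DESeq2 called 6 of the 37 members in that comparison, all higher in 5d-U. The 3 comparisons with 2+3d-C share its libraries, and those with F share F libraries, so they are not independent of each other.

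**Figure D2:**
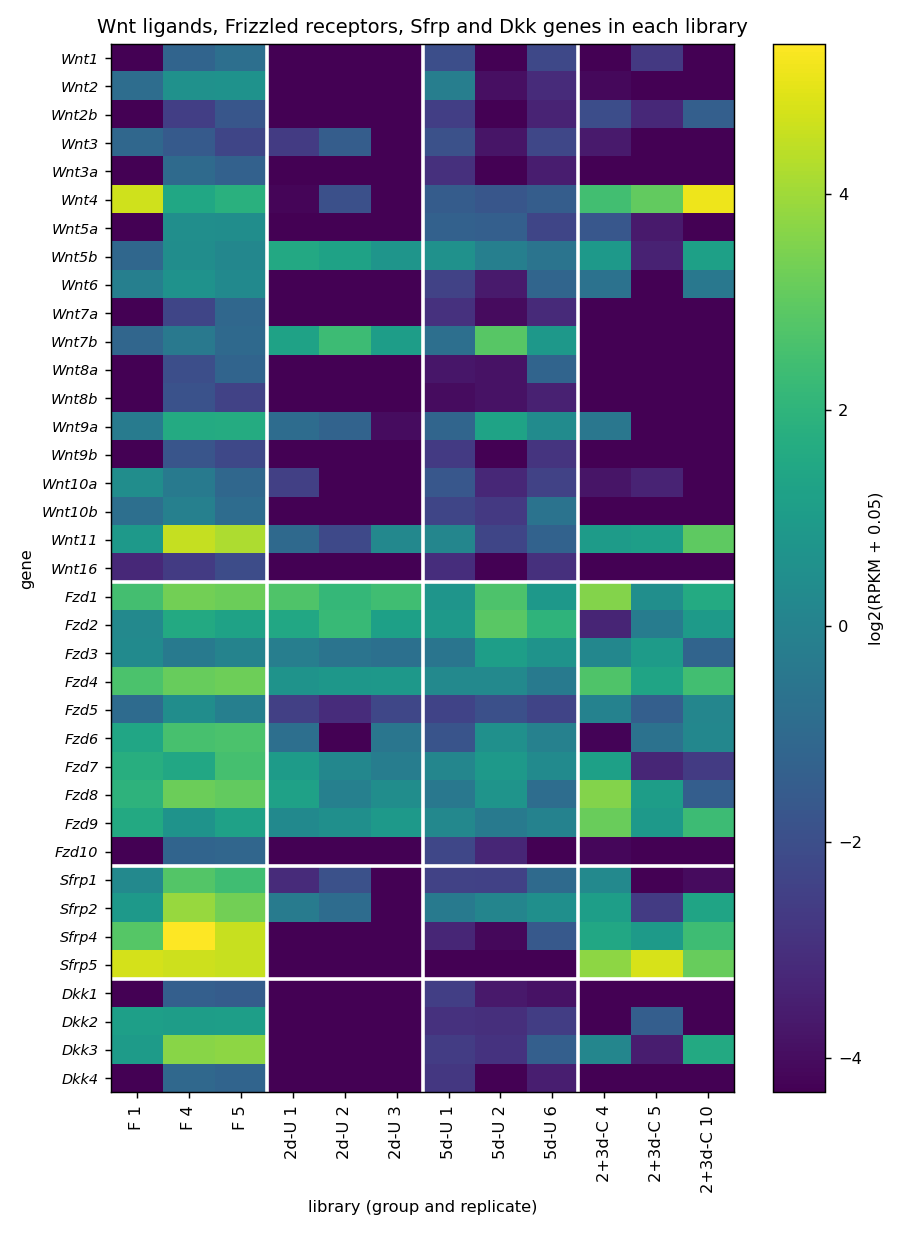
Levels of all 37 genes in the 12 libraries as log2(RPKM + 0.05), with white lines between groups and between the Wnt, Fzd, Sfrp and Dkk families. Most Wnt ligands stayed dark in 2d-U and 2+3d-C, while Sfrp5, Sfrp4 and Wnt4 were bright in F and 2+3d-C and dark in the uncompressed cultures.

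Of the ligands, Wnt4 had the highest level under compression. Wnt4, known for its part in kidney tubule formation and for acting both with and without beta-catenin, lies on chromosome 4 (mm10, 137277489 to 137299726, plus strand). It stood at 5.39, 8.24 and 35.6 RPKM in the 2+3d-C libraries and at 0.301, 0.250 and 0.315 RPKM in the 5d-U libraries. In 2d-U it had 0.00451, 0.205 and 0 RPKM, with 1, 22 and 0 reads. F libraries gave 25.6, 2.74 and 3.56 RPKM. Every F and 2+3d-C library thus exceeded every cultured, uncompressed library, with F replicate 1 and 2+3d-C replicate 10 highest. The log2 change was 5.83 (SE 1.41, adjusted p = 0.0089) against 5d-U and 8.01 (SE 1.58, adjusted p = 0.0023) against 2d-U and, not called, 0.63 (SE 1.14, adjusted p = 0.74) against F. From F to 2d-U Wnt4 fell by 7.38 (SE 1.54) and from F to 5d-U by 5.20 (SE 1.37, adjusted p = 0.014), the latter call being lost without F replicate 1 (adjusted p = 0.060). In 5d-U replicate 1 its 29 reads compare with 16.0 expected from the silent families. With a model term for the 4 libraries with such reads, the adjusted p against 5d-U became 0.12, and in the 8 other libraries alone it was 0.25. Chodl, a MuSC marker, had 211, 34.5 and 42.2 RPKM in the F libraries and was likewise highest in replicate 1. So was the sum of the 8 immune markers (741, 355 and 273), while Cd34 of the MuSC list was lowest there (47.3, 66.0 and 57.5 RPKM). Which cells gave the Wnt4 reads was not tested.

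Wnt7b showed the opposite pattern. Wnt7b, a ligand best known from lung and bone growth, lies on chromosome 15 (85535437 to 85582473, minus strand) and shares 6.61% of its exon bases with AU022754 on the other strand. No read fell on it in any of the 3 2+3d-C libraries, where 3 reads would have stood for 0.0115, 0.0740 and 0.0280 RPKM. The 2d-U libraries held 606, 618 and 460 reads (2.34, 4.94 and 2.08 RPKM), and the 5d-U libraries 61, 1004 and 178 reads (0.542, 7.15 and 1.78 RPKM). F libraries gave 0.408, 0.702 and 0.455 RPKM. The level was therefore at least 83.5-fold lower under compression than in 5d-U (adjusted p = 0.00034), at least 82.5-fold lower than the 2d-U level (adjusted p = 0.00028) and at least 13.8-fold lower than in F (adjusted p = 0.0085). Wnt7b was higher in 2d-U than in F by 2.58 on the log2 scale (SE 0.93, adjusted p = 0.043), a call kept in 5 of the 12 fits that left out 1 library. The 5d-U range spanned all 2d-U values and 1 of the F values.

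**Figure D3:**
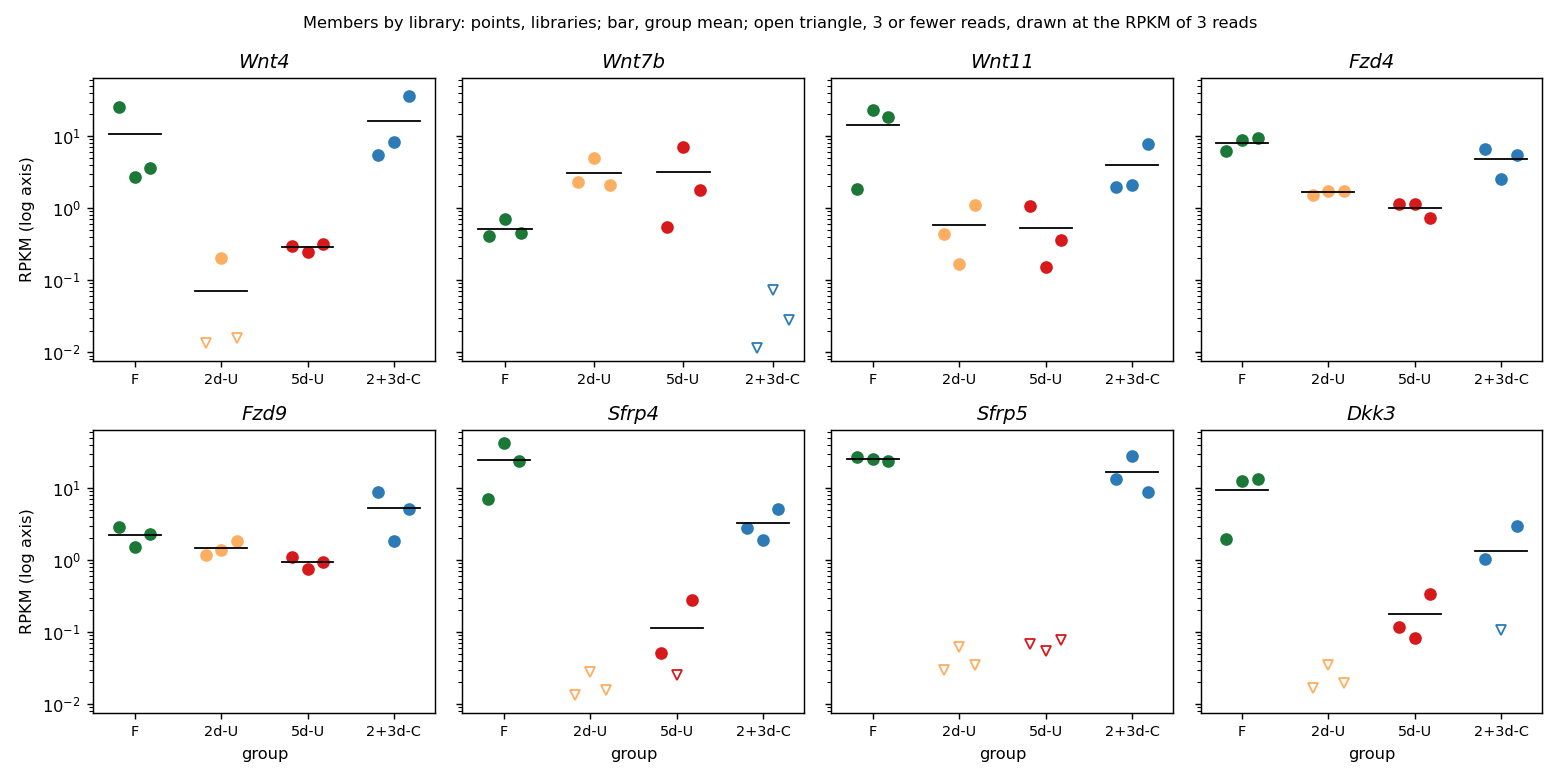
RPKM (log axis) of 8 genes in each library, with filled points for libraries, bars for group means and open triangles for libraries with 3 or fewer reads, drawn at the RPKM of 3 reads. Sfrp5 is at the floor in all 6 uncompressed cultures, and Wnt7b in all 3 2+3d-C libraries.

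The promoter windows of Sfrp5, Wnt4 and Fzd4 are shown because these 3 genes rose under compression against both uncompressed cultures and have an entry in the RefSeq table (GRCm38.p6, the same assembly as mm10). Of the 35 members looked up there, 25 had an entry, in 28 windows of 250 bases before to 50 bases after the RefSeq start. Only the bases before the gene start are printed, 5′ to 3′ on the gene's strand, in lower case with E-boxes (CANNTG, the motif family bound by Myod1 and other basic helix-loop-helix factors, which reads the same on both strands) in capitals. They cover chr19:42202253-42202502 (minus strand), chr4:137277385-137277488 (plus strand) and chr7:89404116-89404354 (plus strand).
Sfrp5: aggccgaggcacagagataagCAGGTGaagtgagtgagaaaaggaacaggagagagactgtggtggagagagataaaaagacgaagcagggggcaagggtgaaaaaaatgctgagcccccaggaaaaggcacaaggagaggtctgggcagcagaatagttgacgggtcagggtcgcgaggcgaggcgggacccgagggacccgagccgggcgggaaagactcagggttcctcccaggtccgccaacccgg
Wnt4: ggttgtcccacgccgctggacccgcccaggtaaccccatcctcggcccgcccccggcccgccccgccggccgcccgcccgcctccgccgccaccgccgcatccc
Fzd4: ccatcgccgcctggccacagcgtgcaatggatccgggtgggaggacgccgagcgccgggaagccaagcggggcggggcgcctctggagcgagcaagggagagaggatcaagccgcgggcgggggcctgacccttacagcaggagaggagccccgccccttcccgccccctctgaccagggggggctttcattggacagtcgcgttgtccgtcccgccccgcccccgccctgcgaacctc
The Sfrp5 window held 1 E-box, CAGGTG. The Wnt4 window held 1, CACCTG, which lies behind the gene start of the count files and is not printed, and the Fzd4 window held none, where 72.3% of all 32851 promoter windows held at least 1. The TCF/LEF core CTTTGA, searched on both strands, was in none of the 3 windows. It was in 4 of the 28 member windows, those of Fzd1, Wnt11, Dkk1 and Wnt5b, and in 16% of all windows. The windows were rich in G and C, with 61.3% in Sfrp5, 84.3% in Wnt4 and 72.7% in Fzd4 beside a median of 52.7% over all windows. A matched motif describes the letters only, and binding was not measured.

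Wnt11, a ligand of the beta-catenin-independent arm with roles in cell movement, was the most abundant Wnt in F replicates 4 and 5. It had 1.87, 23.0 and 18.4 RPKM in F, 0.443, 0.170 and 1.11 in 2d-U libraries, 1.06, 0.152 and 0.367 in 5d-U libraries, and 1.97, 2.10 and 7.74 in 2+3d-C. The 2+3d-C libraries lay above both uncompressed cultures without overlap, but neither difference was called (log2 2.90, SE 1.01, adjusted p = 0.051 against 5d-U, and 2.77, SE 1.00, adjusted p = 0.055 against 2d-U). Both lay near the threshold. Of the 12 fits that left out 1 library, 5 left the difference from 5d-U uncalled and 6 that from 2d-U (adjusted p from 0.020 and 0.033). DESeq2, the fit without a filter and a term for the 4 libraries with silent-family reads called both higher, while both changed sign with the replicate block. The fall from F was called for 2d-U (-4.64, SE 1.08, adjusted p = 0.0057) and 5d-U (-4.77, SE 1.09, adjusted p = 0.0060). In the 8 libraries with few reads on silent families, which leave out F replicates 4 and 5, both calls were lost (adjusted p = 0.42 and 0.39), and that for 2d-U was also lost with a term for the 4 other libraries (adjusted p = 0.13). Its 2961 and 3004 reads in F replicates 4 and 5 were 142 and 102 times those expected from the silent families. The deposited counts did not use strand, and 8.8% of its exon bases overlap Gm8398.

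Wnt5a and Wnt5b, which mostly act without beta-catenin, behaved differently from each other. Wnt5b was read in all 12 libraries, at 0.423, 1.32 and 1.08 RPKM in F, 2.87, 2.39 and 1.61 in 2d-U libraries, 1.47, 0.868 and 0.608 in 5d-U libraries, and 1.86, 0.0455 and 2.27 in 2+3d-C. The 2d-U libraries were the highest of the uncompressed ones and 2+3d-C replicate 5, the shallowest library, held 1 read, and no comparison was called. Wnt5a was at 0 reads in all 3 2d-U libraries and had 0, 1.33 and 1.31 RPKM in F. Its 5d-U values were 0.356, 0.335 and 0.156 RPKM, and its 2+3d-C values 0.259, 0.0309 and 0. Against 2d-U it was at least 9.42-fold higher in 2+3d-C (adjusted p = 0.042) and at least 85.8-fold higher in F (adjusted p = 0.011), although in both groups 1 library had 0 reads. The call for F, whose reads all lay in replicates 4 and 5, was lost with a term for the 4 libraries rich in silent-family reads (adjusted p = 0.12) and in the 8 other libraries, where both groups are at 0. The first of these calls was lost without any of 6 libraries, including 2+3d-C replicate 4 (adjusted p = 0.26).

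Wnt2b, Wnt6 and Wnt10b were low in every group. Wnt2b, a beta-catenin-dependent ligand, held 44, 2 and 31 reads in 2+3d-C (0.196, 0.0575 and 0.337 RPKM), none in 2d-U, 12, 0 and 4 in 5d-U libraries (0.124, 0 and 0.0466 RPKM) and 0, 16 and 42 in F (0, 0.122 and 0.253 RPKM), the last 2 near the 21.1 and 30.0 reads that the silent families predict. Its call against 2d-U (at least 10.3-fold higher, adjusted p = 0.038) was kept in 4 of the 12 fits that left out 1 library. Wnt6 had 0.582, 0 and 0.688 RPKM in 2+3d-C, 0.854, 1.48 and 1.17 in F, 0.139, 0.0318 and 0.402 in 5d-U libraries and 0 reads in each 2d-U library. It was at least 11.6-fold higher under compression than in 2d-U (adjusted p = 0.014), a call kept without each of the 12 libraries in turn but lost in the 8 libraries with few silent-family reads (adjusted p = 0.085).

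Wnt10b, known for favouring muscle over fat fate in precursor cells, had no read in any 2d-U or 2+3d-C library. In 5d-U it had 12, 10 and 42 reads (0.153, 0.103 and 0.604 RPKM), of which 13.0 and 2.16 are the numbers expected from the silent families in replicates 1 and 6, and in F 0.538, 0.898 and 0.484 RPKM. It was at least 5.26-fold lower under compression than in 5d-U (adjusted p = 0.019) and at least 11.7-fold lower than in F (adjusted p = 0.034). After the silent-family reads were subtracted, these adjusted p became 0.050 and 0.068. Without 5d-U replicate 6 they were 0.086 and 0.055, and without 2+3d-C replicate 4 they were 0.072 and 0.069. The call against F was also lost without 2+3d-C replicate 5 or 10 or F replicate 4 or 5 (adjusted p up to 0.11).

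The remaining ligands with a call or a mean of at least 1 RPKM were highest in F. Wnt9a had 0.775, 2.97 and 3.11 RPKM in F, 0.494, 0.377 and 0.0133 in 2d-U libraries, 0.405, 2.42 and 1.25 in 5d-U libraries and 0.665, 0 and 0 in 2+3d-C, and no comparison was called. Wnt2 had 0.498, 1.45 and 1.51 RPKM in F, none in 2d-U and 0.849, 0.0155 and 0.0651 in 5d-U libraries, and its 2+3d-C libraries held 1, 0 and 0 reads. It was at least 32.5-fold lower in 2d-U than in F (adjusted p = 0.0071), and the comparisons of 2+3d-C with 5d-U (adjusted p = 0.056) and with F (adjusted p = 0.050, just above the threshold) were not called. Wnt1 held 0, 29 and 50 reads in F (0, 0.392 and 0.532 RPKM), 0 in 2d-U libraries, 11, 0 and 8 in 5d-U libraries (0.201, 0 and 0.165 RPKM) and 0, 2 and 0 in 2+3d-C, which is 0.102 RPKM in replicate 5. Wnt9b held 0, 34 and 29 reads in F (0, 0.242 and 0.162 RPKM), 11, 0 and 8 in 5d-U libraries (0.106, 0 and 0.0866 RPKM) and none in 2d-U and 2+3d-C. The calls of Wnt1 and Wnt9b between 2d-U and F, at least 9.13-fold and 7.59-fold lower, were kept in 6 and 5 of the 12 fits without 1 library, and for Wnt9b the F reads were 1.50 and 0.90 times those expected from the silent families.

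In all, 7 ligands and 2 antagonists had no call and no group mean of 1 RPKM. Wnt3, Wnt10a, Wnt3a, Wnt7a, Wnt8a, Wnt8b, Wnt16, Dkk1 and Dkk4 ranged from 0 to 1.30 RPKM, the latter being Wnt10a in F replicate 1. Of these, Wnt3a, Wnt7a, Wnt8a, Wnt8b, Wnt16, Dkk1 and Dkk4 had 0 reads in every 2d-U and 2+3d-C library. Their reads in F were largely those of replicates 4 and 5, for example 15 and 53 for Wnt7a, a ligand known to enlarge the satellite cell pool, and in F replicate 1 all but Wnt16 were at 0.

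Among the receptors, Fzd4 and Fzd9 were higher under compression than in 5d-U. Fzd4, which also receives the non-Wnt ligand norrin in blood vessels, lies on chromosome 7 (89404355 to 89413134, plus strand). It had 6.57, 2.50 and 5.40 RPKM in 2+3d-C, 1.13, 1.13 and 0.728 in 5d-U libraries, 1.52, 1.70 and 1.75 in 2d-U libraries and 6.14, 8.79 and 9.36 in F. The 2+3d-C libraries lay above all 6 uncompressed cultures. Fzd4 was higher by 2.28 on the log2 scale against 5d-U (SE 0.49, adjusted p = 0.0046), a call kept without each library in turn, and by 1.54 against 2d-U (SE 0.48, adjusted p = 0.031), which was kept in 2 of the 12 such fits and reached adjusted p = 0.14 without 2d-U replicate 1. Against F the change was -0.75 (SE 0.47, adjusted p = 0.27). Fzd4 was lower than in F by 2.29 in 2d-U and by 3.02 in 5d-U (SE 0.49 and 0.51, adjusted p = 0.0037 and 0.00091). Both calls were kept without each library in turn. With a model term for replicate number they were lost, as were the calls of 2+3d-C against 5d-U and against 2d-U.

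Fzd9 (chromosome 5, 135248938 to 135251230, minus strand) had 8.93, 1.84 and 5.06 RPKM in 2+3d-C, 1.12, 0.761 and 0.939 in 5d-U libraries, 1.18, 1.38 and 1.86 in 2d-U libraries and 2.92, 1.53 and 2.33 in F. All 2+3d-C values exceeded all 5d-U values, while replicate 5 lay within the ranges of 2d-U and F. The log2 change against 5d-U was 2.49 (SE 0.78, adjusted p = 0.034), and that against 2d-U 1.84 (SE 0.76, adjusted p = 0.091) and against F 1.23 (SE 0.75, adjusted p = 0.25). The call against 5d-U was kept in 2 of the 12 fits that left out 1 library, with an adjusted p of 0.17 without 2+3d-C replicate 4.

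Fzd5 and Fzd8, receptors used in eye and gut development among other places, varied with the compressed library. Fzd5 had 0.933, 0.332 and 1.04 RPKM in 2+3d-C, 0.145, 0.207 and 0.149 in 5d-U libraries, 0.128, 0.068 and 0.157 in 2d-U libraries and 0.469, 1.31 and 0.871 in F. No uncompressed culture reached the lowest F or 2+3d-C library. The rise over 2d-U was called (2.70, SE 0.89, adjusted p = 0.039, kept in 2 of 12 fits without 1 library, 0.19 at most) and that over 5d-U was not (2.20, SE 0.88, adjusted p = 0.079), and 17.8% of its exon bases are shared with Gm38058. Fzd8 had 11.8, 2.04 and 0.321 RPKM in 2+3d-C, 0.684, 1.59 and 0.499 in 5d-U libraries, 2.29, 0.885 and 1.31 in 2d-U libraries and 3.87, 9.24 and 8.31 in F. One compressed library lay above every F library and another below every library of the other groups, so 2+3d-C overlapped all groups and was called against none (2.36, SE 0.95, adjusted p = 0.083 against 5d-U, and 0.013 without 2+3d-C replicate 10). Its fall from F to 5d-U was called (-2.95, SE 0.97, adjusted p = 0.044) and was lost without F replicate 4 or 5 or 5d-U replicate 1 or 6 (adjusted p up to 0.16).

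The other 6 Frizzled genes were not called in any comparison with 2+3d-C. Fzd1 and Fzd2 were the main receptors of the uncompressed cultures. Fzd1 had 6.54, 4.42 and 5.29 RPKM in 2d-U libraries, 1.64, 6.32 and 1.75 in 5d-U libraries, 11.9, 1.35 and 3.03 in 2+3d-C and 5.57, 9.91 and 9.13 in F. Fzd2 had 2.80, 4.56 and 2.23 RPKM in 2d-U libraries, 1.88, 7.42 and 3.90 in 5d-U libraries, 0.0512, 0.791 and 1.88 in 2+3d-C and 1.15, 2.95 and 2.38 in F. The 2+3d-C libraries lay below all 2d-U libraries and overlapped 5d-U only at 1.88 RPKM, and the change against 5d-U was not called (-2.28, SE 0.98, adjusted p = 0.095, and 0.035 without 2+3d-C replicate 10). Fzd7, the receptor through which Wnt7a is known to act on MuSCs, had 3.40, 2.75 and 5.67 RPKM in F, 1.97, 1.08 and 0.821 in 2d-U libraries, 1.04, 1.80 and 1.20 in 5d-U libraries and 2.25, 0.0533 and 0.111 in 2+3d-C. Replicates 5 and 10 of 2+3d-C, with 2 and 11 reads, lay below every other library and replicate 4 lay above every uncompressed culture.

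Fzd3 and Fzd6 work in planar cell polarity. Fzd3 had 1.21, 0.743 and 0.978 RPKM in F, 0.840, 0.618 and 0.550 in 2d-U libraries, 0.628, 2.11 and 1.55 in 5d-U libraries and 1.08, 1.97 and 0.382 in 2+3d-C, and its groups overlapped throughout. Fzd6 had 2.63, 5.86 and 6.22 RPKM in F, 0.541, 0 and 0.644 in 2d-U libraries, 0.235, 1.4 and 0.914 in 5d-U libraries and 0.00389, 0.577 and 1.08 in 2+3d-C. F lay above all cultures, yet the comparison with 2d-U was not called (-3.62, SE 1.53, adjusted p = 0.062). Fzd10 had 0, 0.386 and 0.413 RPKM in F, 0.161, 0.0537 and 0 in 5d-U libraries, 0.00577, 0 and 0 in 2+3d-C and no read in 2d-U. It was called between 2d-U and F (at least 10.8-fold lower, adjusted p = 0.031) on 39 and 53 reads in F replicates 4 and 5, which were 2.39 and 2.29 times those expected from the silent families. That call was lost without F replicate 4 or 5 or any 2d-U library (adjusted p up to 0.086).

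The mix of receptors was compared as shares of the summed Frizzled RPKM in each library. In 2d-U, Fzd1 took 36.7%, 30.0% and 36.2% and Fzd2 15.7%, 31.0% and 15.3%. In 5d-U these shares were 18.9%, 27.7% and 15.0% for Fzd1 and 21.7%, 32.6% and 33.6% for Fzd2. In 2+3d-C, Fzd2 took 0.118%, 6.90% and 10.3%, and in F 4.19%, 6.78% and 5.20%. Fzd2 thus had a smaller share in each F and 2+3d-C library than in any uncompressed culture. Fzd4 took 15.1%, 21.8% and 29.5% in 2+3d-C and 22.4%, 20.2% and 20.5% in F, against 4.94% to 13.1% in the 6 uncompressed cultures. Fzd9 took 20.5%, 16.1% and 27.7% in 2+3d-C, more than the 3.34% to 12.9% of the other 9 libraries. The summed Frizzled RPKM was 27.4, 43.5 and 45.7 in F, 17.8, 14.7 and 14.6 in 2d-U libraries, 8.65, 22.8 and 11.6 in 5d-U libraries and 43.5, 11.5 and 18.3 in 2+3d-C, so the compressed libraries spanned nearly the whole range. These shares are a description, and no test was run on them.

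**Figure D4:**
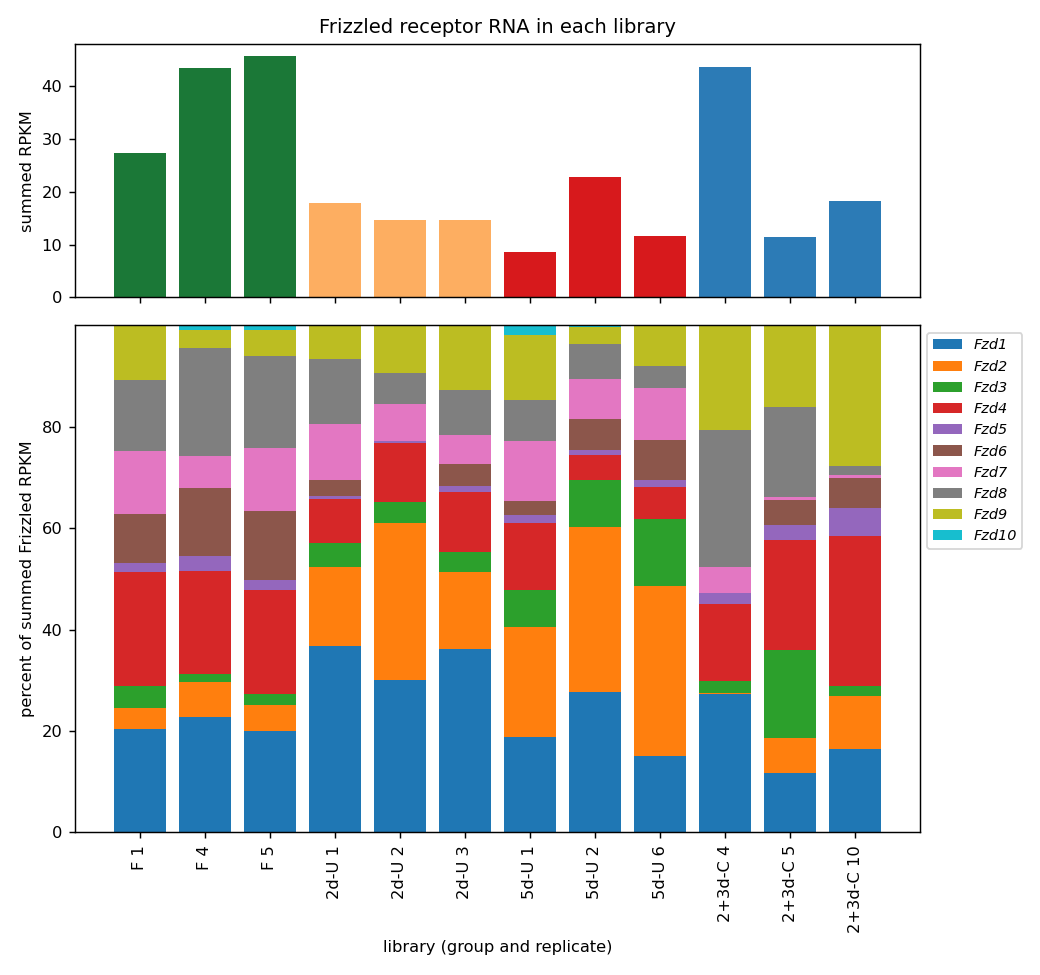
Summed RPKM of the 10 Frizzled genes (top) and the percent of it taken by each gene (bottom) in the 12 libraries, as bars from 0. Fzd2 takes 15.3% to 33.6% in the uncompressed cultures and at most 10.3% in F and 2+3d-C. Fzd4 takes larger shares in F and 2+3d-C than in any uncompressed culture, and Fzd9 takes its largest shares in 2+3d-C.

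Of the secreted antagonists, Sfrp5 and Sfrp4 were higher under compression than in either uncompressed culture. Sfrp5, known as a Wnt antagonist of fat and gut tissue, lies on chromosome 19 (42197971 to 42202252, minus strand), and none of its exon bases overlap another gene. It had no read in any of the 6 uncompressed culture libraries, where 3 reads would have stood for 0.0298 to 0.0772 RPKM. In F it had 1223, 1475 and 1765 reads (26.8, 24.9 and 23.5 RPKM) and in 2+3d-C 1336, 438 and 364 reads (13.2, 27.8 and 8.75 RPKM). In F replicates 4 and 5 this was 154 and 130 times the number expected from the silent families, and in 5d-U replicates 1 and 6, where 7.24 and 1.21 reads were expected, there was none. Sfrp5 was at least 248-fold higher under compression than in 5d-U (adjusted p = 4.5e-05) and at least 393-fold higher than in 2d-U (adjusted p = 2.9e-05). It was at least 594-fold lower in 2d-U than in F, and the bound for 5d-U was 374-fold. Between 2+3d-C and F the log2 change was -0.60 (SE 0.59, adjusted p = 0.50), and the ranges overlapped.

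Sfrp4 rose to a lower level. Sfrp4, found in connective tissue and bone among other places, lies on chromosome 13 (19623104 to 19632994, plus strand). It had 2.76, 1.91 and 5.19 RPKM in 2+3d-C and 0.052, 0.00835 and 0.281 in 5d-U libraries, or 614, 66 and 475 against 5, 1 and 24 reads. The 2d-U libraries held none. F had 7.05, 41.9 and 23.9 RPKM, the 2 higher ones in the replicates with the highest fibroadipogenic sums, 1901 and 1891 against 617 in replicate 1. The same 2 replicates had the higher tendon sums (1486 and 1405 against 151) and myofiber sums (1569 and 892 against 19.5). They also had the most silent-family reads, while the immune sum was highest in replicate 1. Which cells gave the Sfrp4 reads was not tested. Sfrp4 was higher in 2+3d-C by 4.88 on the log2 scale against 5d-U (SE 1.05, adjusted p = 0.0055) and at least 171-fold higher than in 2d-U (adjusted p = 0.00028). The call against 5d-U was kept without each library in turn but was lost with a model term for replicate number. Against F it was lower without overlap but not called (-2.88, SE 0.93, adjusted p = 0.076), and it passed the threshold without F replicate 1 (adjusted p = 0.041) or 5d-U replicate 2 or 6. It also passed with DESeq2, without a filter, with the term for replicate number and with these 2 groups alone. It was at least 1263-fold lower in 2d-U than in F and fell by 7.76 (SE 1.18, adjusted p = 0.00073) from F to 5d-U.

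Sfrp1 and Sfrp2, both broadly expressed in mesenchymal cells, followed F replicates 4 and 5. Sfrp1 had 1.14, 6.79 and 5.28 RPKM in F, 0.0649, 0.215 and 0 in 2d-U libraries, 0.139, 0.136 and 0.459 in 5d-U libraries and 1.15, 0 and 0.0105 in 2+3d-C, where replicate 4 alone was above the uncompressed cultures. Sfrp2 had 1.80, 14.8 and 10.1 RPKM in F, 0.773, 0.491 and 0 in 2d-U libraries, 0.747, 1.02 and 1.39 in 5d-U libraries and 2.11, 0.112 and 2.50 in 2+3d-C. Both were called lower in 2d-U than in F, Sfrp1 by 5.58 (SE 1.86, adjusted p = 0.030) and Sfrp2 by 4.40 (SE 1.45, adjusted p = 0.029). Leaving out F replicate 4 or 5 ended both calls (adjusted p up to 0.087). Leaving out 2d-U replicate 1 or 3 also ended that of Sfrp1, and leaving out 2d-U replicate 2 that of Sfrp2. Gm26771 shares 16.1% of the exon bases of Sfrp2 on the other strand.

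Among the Dkk genes, Dkk3, a divergent member that does not block Lrp6 as Dkk1 does, had the highest group mean in F, 5d-U and 2+3d-C. It had 1.94, 12.5 and 13.4 RPKM in F, none in 2d-U, 0.117, 0.0831 and 0.335 in 5d-U libraries and 1.05, 0.036 and 2.97 in 2+3d-C. Replicate 5 of 2+3d-C held 1 read and fell below all 5d-U libraries, while the other 2 lay above them. Dkk3 was at least 56.5-fold higher under compression than in 2d-U (adjusted p = 0.0021), was not called against 5d-U (2.94, SE 1.21, adjusted p = 0.091) and fell by 5.70 (SE 1.36, adjusted p = 0.0096) from F to 5d-U. Dkk2 was even across the F libraries at 2.16, 2.09 and 2.14 RPKM, absent from 2d-U and at 0.0822, 0.0753 and 0.119 RPKM in 5d-U libraries. In 2+3d-C only replicate 5 held Dkk2 reads (10 reads, 0.326 RPKM), and its call there against 2d-U (at least 5.02-fold higher, adjusted p = 0.045) rests on that library, without which both groups are at 0. It was kept in 3 of the 12 fits that left out 1 library. Its fall from F to 2d-U was at least 98.3-fold (adjusted p = 0.0052).

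Counted per library, more than 3 reads fell on 26, 37 and 37 members in F, 17, 16 and 12 in 2d-U libraries, 33, 22 and 30 in 5d-U libraries and 21, 13 and 18 in 2+3d-C. The libraries in which all 37 were read are the 2 with the most silent-family reads. When a member also had to exceed 2 times the reads expected from the silent families, the counts became 26, 30 and 30 in F, 14, 22 and 28 in 5d-U libraries and were the same in 2d-U and 2+3d-C. In 5d-U replicate 1, Wnt4, Wnt10b, Sfrp4 and Dkk3 were among the members at or under 2 times their expected reads. The summed RPKM of the 4 Sfrp genes was 36.8, 88.4 and 62.7 in F, 0.838, 0.706 and 0 in 2d-U libraries, 0.939, 1.17 and 2.13 in 5d-U libraries and 19.2, 29.9 and 16.5 in 2+3d-C. That of the 19 Wnt genes was 32.7, 38.8 and 34.1 in F, 6.39, 8.41 and 4.81 in 2d-U libraries, 6.46, 11.5 and 6.75 in 5d-U libraries and 11.0, 10.6 and 46.6 in 2+3d-C.

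**Figure D5:**
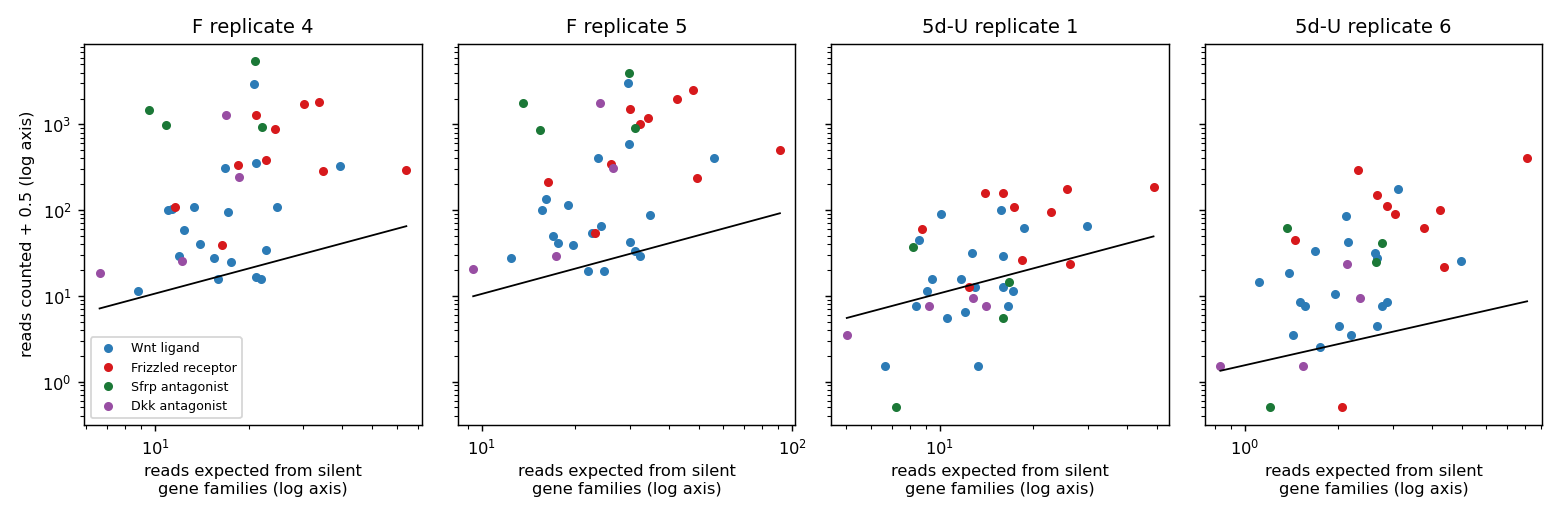
Reads counted on each of the 37 genes (plus 0.5, log axis) against the reads expected from the density on silent gene families (log axis) in F replicates 4 and 5 and 5d-U replicates 1 and 6, where the line marks equality. In 5d-U replicate 1, 14 genes lie above 2 times the expectation, and in F replicates 4 and 5 the Sfrp genes lie far above it.

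The rest of the Wnt pathway was described from lists of 94 genes, of which 91 were tested. Between 2+3d-C and 5d-U 29 of them, or 31.9%, were called (18 higher, 11 lower) beside the 22.6% of all genes, with a median change of 0.40 beside -1.05 for all genes. Against 2d-U 30, or 33.0% beside 24.6% of all genes, were called (25 higher, 5 lower), which became 18 higher and 8 lower without TMM scaling. Against F 8, or 8.79% beside 6.4%, were called (1 higher, 7 lower, and 0 and 8 without TMM scaling), and between 2d-U and F 42, or 46.2% beside 43.8% (7 higher, 35 lower). The 5d-U group differed from F in 17, or 18.7% beside 20.5% (4 higher, 13 lower, and 2 and 16 without TMM scaling), and from 2d-U in 4, or 4.40% beside 2.12% (3 higher, 1 lower). The counts of single lists between 2+3d-C and 5d-U that follow stand beside the same 22.6% of all genes, 9.14% higher and 13.4% lower.

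Several co-receptors were higher under compression. Ror1, a receptor tyrosine kinase for Wnt5a, had 33.0, 20.7 and 27.3 RPKM in 2+3d-C and 0.0666 to 0.483 in 5d-U libraries (6.45, SE 1.21, adjusted p = 0.0019). Lrp6 had 7.72, 9.06 and 5.87 RPKM against 1.12 to 1.46 (2.57, SE 0.45, adjusted p = 0.0011), and of 14 co-receptor and receptor-turnover genes 4 were called higher and 2 lower, 42.9% in all. Musk, known from the neuromuscular junction, was higher under compression than in 2d-U (3.38, SE 0.66, adjusted p = 0.0022) and not called against 5d-U (1.77, SE 0.62, adjusted p = 0.054). Lgr6, an R-spondin receptor, was at least 58.6-fold lower under compression than in 5d-U (adjusted p = 0.020).

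Of 17 genes for Wnt secretion and extracellular modulation, 14 were tested and 4 (28.6%) were called between 2+3d-C and 5d-U, all lower, with a median change of -1.06 over the list (-0.73 with bounds) beside -1.05 for all genes. Wls, which carries Wnts to the surface, was at 7.62, 9.44 and 4.88 RPKM against 10.3, 24.8 and 20.7 (-1.35, SE 0.41, adjusted p = 0.030). Frzb, the Sfrp3 gene under another name, had 1.67, 3.76 and 2.42 RPKM in F and no read in 2d-U or 2+3d-C. In 5d-U libraries it had 10, 4 and 8 reads (up to 0.134 RPKM). Its call against 5d-U rests on these few reads, which were not set beside the number expected from the silent families. Cthrc1, a secreted cofactor of the polarity arm, had 0.730, 3.11 and 0 RPKM in 2+3d-C and 2.38, 62.0 and 364 in 5d-U libraries (-6.91, SE 1.62, adjusted p = 0.0074).

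In the cell, 6 of 20 transduction genes (30%) were called between 2+3d-C and 5d-U (5 higher, 1 lower), and Ctnnb1, the beta-catenin gene, was not (0.55, SE 0.55, adjusted p = 0.45). Csnk1d, a casein kinase, was higher by 2.52 (SE 0.37, adjusted p = 0.00036), and Ctnnbip1, which keeps beta-catenin from TCF factors, changed by -3.47 (SE 0.70, adjusted p = 0.0029). Of 14 nuclear factors 2 (14.3%) were called, the co-repressors Tle3 (2.01, SE 0.65) and Tle4 (4.00, SE 1.19), both higher. Vangl2, a core polarity protein, was at least 76.5-fold lower, while Nfatc1, a calcium-regulated factor, was higher by 6.04 (SE 0.71, adjusted p = 5.7e-05).

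Common targets of beta-catenin and TCF moved in both directions, 2 higher and 3 lower of 15 (33.3%) between 2+3d-C and 5d-U. Myc had 2054, 2769 and 1285 RPKM in 2+3d-C against 43.1 to 138 in 5d-U libraries (4.76, SE 0.58, adjusted p = 7.7e-05), and Ccnd1, a G1 cyclin, had 4.47, 4.90 and 0.456 against 55.4 to 239 (-5.54, SE 0.85, adjusted p = 0.00047). Both genes answer to many other signals. Bambi was higher (1.55, SE 0.48, adjusted p = 0.031), Lbh lower (-2.80, SE 0.72, adjusted p = 0.013), and Lef1 was not called (-2.84, SE 1.39, adjusted p = 0.13).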

How the data were processed

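RNA from 12 libraries was measured. According to the study's methods, libraries were made with SMART-seq v4 and reads were aligned to mm10 with the nf-core RNA-seq pipeline, and per the file headers featureCounts counted exon reads per gene without using strand. The deposited values are these raw counts. Groups were taken from the labels. Of 55335 genes, the 22635 that passed edgeR's filter on low counts were tested with the quasi-likelihood method of edgeR 4.0.16 (R 4.3.3) with TMM scaling, 1 fit over all 12 libraries, and Benjamini-Hochberg adjustment over these genes. DESeq2 1.42.0, other filters and scalings, a replicate block and left-out libraries were alternatives. RPKM used the exon lengths in the files. Depth was 12540745 to 62424851 reads, and bounds from 3 reads cover counting error only. Described with a value in every library were members called in any comparison or with a group mean of at least 1 RPKM, and of each pathway list the 3 genes with the highest mean RPKM and the 3 with the smallest p between 2+3d-C and 5d-U could be named. The members and lists were chosen with earlier results of these data known. Genes on chromosome 18 have no sequence shown here.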

Additional observations from a re-analysis of the deposited data

How the results depend on the processing

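Of 1332 values of 65 results for single genes under alternatives, 1041 kept direction and side of the threshold, 201 no longer passed it, 78 newly passed it and 12 changed sign, and the causes were not tested. The lists of members called moved as follows, with the range over fits that left out 1 library last. Between 2+3d-C and 5d-U, 7 became 12 with DESeq2, 4 with the replicate block and 2 in the 8 libraries with few silent-family reads, an alternative chosen after seeing the data in which the lone F and 5d-U libraries are assumed to vary like the others (5 to 10). Against 2d-U, 11 became 6 without TMM, 4 with the replicate block, 4 with 2 groups alone and 5 in 8 libraries (6 to 12). Against F, 2 became 7 with DESeq2, 6 without a filter, 1 each with a mean of at least 1 CPM, with silent-family reads subtracted and with a term for the 4 libraries, 8 with the replicate block, 4 with 2 groups alone and 0 in 8 libraries (1 without 2+3d-C replicate 10, 15 without F replicate 1). Between 5d-U and 2d-U, 0 became 6 with DESeq2, 6 without a filter, 2 with the replicate block and 2 with 2 groups alone (0 to 4). Between 2d-U and F, 19 became 9 with the term, 5 with the replicate block and 3 in 8 libraries (11 to 28). Between 5d-U and F, 7 became 12 with DESeq2, 3 with the replicate block, 13 with 2 groups alone and 0 in 8 libraries (6 to 10).

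Of the other Wnt pathway genes, the 29 called between 2+3d-C and 5d-U became 14 with the term, 15 with the replicate block, 19 with 2 groups alone and 6 in 8 libraries (16 without 5d-U replicate 6, to 34). Against 2d-U, 30 became 12 with the replicate block, 19 with 2 groups alone and 18 in 8 libraries (19 to 31). Against F, 8 became 23 with DESeq2, 16 without a filter, 5 after subtraction, 2 with the term, 15 with the replicate block, 5 with 2 groups alone and 0 in 8 libraries (3 without F replicate 4, 22 without F replicate 1). Between 5d-U and 2d-U, 4 became 19 with DESeq2, 1 without TMM, 11 without a filter, 2 with a mean of at least 1 CPM, 1 after subtraction, 0 with the term and 0 in 8 libraries (0 to 10). Between 2d-U and F, 42 became 24 with the term, 15 with the replicate block and 12 in 8 libraries (28 to 48). Between 5d-U and F, 17 became 36 with DESeq2, 27 after subtraction, 9 with the replicate block, 28 with 2 groups alone and 1 in 8 libraries (9 without 5d-U replicate 6, to 22).

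Log2 changes that took the other sign with the replicate block were those between 2d-U and F of Wnt1 (0.66), Wnt2b (0.66), Wnt5a (0.028), Wnt9b (0.66) and Fzd10 (0.37), those of 2+3d-C against 2d-U of Wnt2b (-1.23), Wnt5a (-3.69) and Wnt11 (-1.63), and those of 2+3d-C against 5d-U of Wnt11 (-2.23) and Dkk3 (-1.35). The uncalled change of Wnt4 between 2+3d-C and F ran from -0.64 without 2+3d-C replicate 10 to 2.25 without F replicate 1 and was -0.63 in 8 libraries. The call of Wnt6 between 2+3d-C and 2d-U was also lost with the replicate block (adjusted p = 0.47). Libraries of the same replicate number in 2 groups had deviations correlated at -0.42 to 0.03, with at most 2 such pairs between any 2 groups. So few pairs cannot show whether such libraries share a sort or an animal. Without TMM the median gene shifted by up to -0.52 (2+3d-C against 2d-U), and with DESeq2 by up to -0.40 (5d-U against F). Members at a few reads per library are limited by depth.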
